A study of Mus musculus with 7 samples.

Results

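The regions described here are the first 300 bases of the longest protein-coding transcript of each of 21853 nuclear protein-coding genes of the mouse, as annotated in GENCODE M21 on GRCm38. They were examined in reads from a study of RNA that comes down with the Polycomb protein Ezh2. All 21853 genes were members whether or not they had a read, and 127 of them have a transcript shorter than 300 bases. The next 300 bases of the same transcripts served for comparison in the 21098 genes whose transcript has at least 600 bases. The RNA was nuclear and came from untreated mouse embryonic stem cells kept in LIF. The labels list 7 libraries. Of these, 5 were made with an antibody to Ezh2 from cells of the strain 129X(M.castaneusX129) for which no change of Ezh2 is given, and 2 of the 5 are deeper sequencing of samples among the others. A further library used the same antibody on Ezh2 null cells given only as M.musculus, and another used IgG on the 129X(M.castaneusX129) cells. The labels do not name the null allele or say how many clones the null cells come from. The values come from a single table of read sequences and read counts that no label ties to a library, so nothing below is a comparison of Ezh2 with a control, and there is no replicate. Of the 10 stem cell markers examined, 9 had at least 50 sense reads over the gene, with a range of 37 to 66761. Fibroblast or feeder markers had 70 to 5268 in 10 of 10 genes, and their part in the results was not tested.

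The front end of a messenger RNA carries the cap and the untranslated leader that ribosomes scan on the way to the start codon. Many mammalian promoters lie in CpG islands, so these first bases are often rich in G and C. PRC2, the complex in which Ezh2 methylates histone H3, is known to settle on such islands and to bind RNA in the test tube, with a preference for runs of G. Active promoters are also known to give rise to short RNAs of both strands. How much RNA of either strand the pool held in these first bases is therefore the question addressed.

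Reads in this table run opposite to the RNA they come from, and 6 leading bases of each read were dropped because they often differ from the transcripts. The base of the transcript where the matched stretch of a read begins is called its start position. For sense RNA it marks the downstream end of the matched stretch, and a read cannot start in sense before base 20, since at least 20 bases have to fit. The sequences that follow show the RNA at the start position with most reads in each of the 10 genes with most sense reads in these regions, and in Yy1, which had the most sense start positions among genes without a sense read in the next 300 bases. Each shows 24 matched bases in lower case and, in capitals, the 6 transcript bases that face the dropped part of the read, from 5′ to 3′, with coordinates on GRCm38. Those of Ddx23, Abcf1 and Fam25c run across an intron, which their coordinates include.
Ddx23, chr15:98656698-98658244, minus strand: caagtctgtagagagggaacggcgGCACAA
Aimp1, chr3:132674802-132674831, minus strand: acttcgagttgaaaatgctaaactGAAAAA
Abcf1, chr17:35964030-35964266, minus strand: acagcaacagcagcaacagaagaaAAAGCG
L1td1, chr4:98733235-98733264, plus strand: tcaaaaggagcggaaagaaaagctGTCGGC
Fam25c, chr14:34353754-34355308, minus strand: agagaaagccactgagggagcagtTCACGC
Tceal9, chrX:136245724-136245753, plus strand: gctaaaataagtaggaaaaagaaaTCGACC
Cbx1, chr11:96800800-96800829, plus strand: cgggtactatggggaaaaagcaaaACAAGA
Rhox5, chrX:37805116-37805145, plus strand: agaggctttcttccaagctggagaGGGGAG
Lap3, chr5:45495221-45495250, plus strand: caagtgcgggagagagttttaataAGTTGG
Rbm5, chr9:107767595-107767624, minus strand: gcgggactcagattacaaaagatcAAGCGA
Yy1, chr12:108793107-108793136, plus strand: cggccacagccagggcaggcagccGAGGCG

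The next 3 show antisense RNA at the position with most antisense reads in Tro, Spp1 and Tmem192, which are among the genes with most antisense reads in these regions. They are written as the antisense RNA reads, and the strand is that of the gene. The sequence of Spp1 runs across an intron.
Tro, chrX:150655489-150655518, minus strand: aatagaattcttcttgttcttgttTTTCTT
Spp1, chr5:104436439-104436566, plus strand: gagctgccagaatcagtcactttcACCGGG
Tmem192, chr8:64956467-64956496, plus strand: ggggagaggatggaatctgggtctAAACTG

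Many of the sense sequences shown are rich in A, and sense start positions had more A than evenly spaced positions. In the 4860 genes with at least 10 sense start positions beyond base 600, called well-covered genes below, the 34 bases at 7370 sense start positions well inside the first 300 bases were 25.6% A, 23.8% C, 32.4% G and 18.3% T. Evenly spaced positions, 10 bases apart, in the first windows of all 4860 genes gave 18.3% A, 30.3% C, 33.1% G and 18.3% T. Starts thus had more A and less C than these evenly spaced positions, with G and T alike, and purines made up 57.9% against 51.4%. Of the 4860 windows, 2835 had no sense read, and their median G+C was 64.7% against 60.7% in those with sense reads. The part of this in the difference was not tested. In the next 300 bases the purine share was 57.6% at sense starts and 52.5% at the evenly spaced positions. Antisense RNA stood closer to the evenly spaced positions, with 50.4% purines at 3236 starts in the first 300 bases against 48.7%. The 6 bases facing the dropped part of the read held 38.1% G at sense starts against 32.5% at the evenly spaced positions, and 37.9% C and 35.5% G at antisense starts against 32.8% and 30.2%. These shares were computed after the sequences had been seen.

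Sense RNA was thinner in the first than in the next 300 bases, whereas antisense RNA, the sparser strand in both, was at a similar density in each. The first windows held 16854 sense start positions with 153302 reads, and the next windows held 32888 with 591179 reads. The first 300 bases thus had 33.9% of the sense start positions of both windows (95% Clopper-Pearson interval 33.5 to 34.3). Antisense RNA gave 8066 start positions in the first and 7493 in the next windows, a first share of 51.8%, and it lay at 1.27 and 1.18 positions per 1000 bases, against 2.66 and 5.20 for sense. In consequence 32.4% of start positions in the first 300 bases were antisense, and 18.6% in the next. All intervals here reflect counting error alone and treat positions as independent, although 37.2% of sense start positions in the first windows had another at the base beside them. PCR copies among the reads could not be recognised.

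The shares differed with the counting. The sense first share was 20.6% by reads and ranged from 27.9% to 40.7% under the other settings tried, so that it stayed below 50% in each. The first share of antisense positions lay close to 50% and its side of 50% was not stable. It was 60.1% by reads, of which Tro alone took 44351 of 101382, and 45.9% by reads without Tro. It was 48.6% in 40-base reads, 49.5% with windows of 200 bases and 46.5% in well-covered genes. The antisense share was larger in the first than in the next windows under every setting tried.

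Along the transcript, sense start positions became denser over some 400 bases, while antisense positions stayed level. A stretch given as bases 100 to 150 begins after base 100. Among 18410 genes with transcripts of at least 1200 bases, sense positions per 1000 matchable bases numbered 1.30 in bases 1 to 50, 2.73 in bases 100 to 150, 4.22 in bases 200 to 250 and 5.02 in bases 250 to 300. Densities reached 6.28 in bases 400 to 450 and lay between 5.29 and 6.68 from there to base 1200. A matchable base is one at which an error-free 34-base read would be returned to its own gene, and these were 37.7% of bases 1 to 50 for sense reads, which the transcript end cuts short, and 89.7% to 93.8% of later bins. Antisense positions numbered between 1.14 and 1.63 per 1000 matchable bases throughout. The antisense share was 42.8% in bases 50 to 100, 22.6% in bases 250 to 300 and 17.1% in bases 550 to 600. The G+C content of the bins moved the other way from sense density, with 60.7% in bases 1 to 50, 55.3% in bases 250 to 300 and 51.6% in bases 550 to 600.

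**Figure D1:**
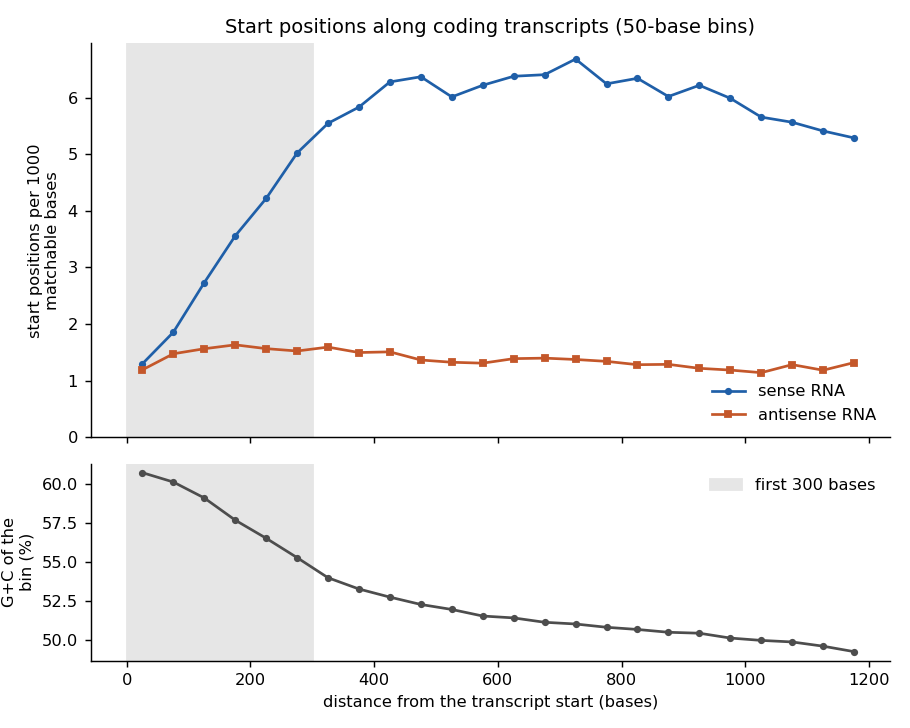
Upper plot: start positions per 1000 matchable bases (y) in 50-base bins by distance from the transcript start (x) in 18410 genes, for sense RNA (blue circles) and antisense RNA (orange squares). Lower plot: G+C percent of the same bins. Shading marks the first 300 bases, within which sense density goes from 1.30 to 5.02 while antisense density lies between 1.19 and 1.63 and G+C goes from 60.7% to 55.3%.

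Untranslated leader made up 58.6% of the first windows and coding sequence 41.3%. Sense positions were sparser in the leader, at 1.68 per 1000 bases against 4.05 in the coding part of the same windows. Antisense positions numbered 1.32 and 1.21. In well-covered genes the order of antisense positions was the other way, with 2.55 in the leader against 3.10, while sense positions numbered 3.72 and 11.8. Over all genes the antisense share was 43.9% in the leader and 23.1% in coding bases. Bases 1 to 100 are mostly leader and include bases where sense reads cannot fit. In bases 100 to 300 sense positions numbered 2.38 in the leader and 4.38 in coding bases, and the antisense share was 37.7% and 22.1%. Distance from the start and the kind of sequence both went with sense density. In well-covered genes the coding bases had 5.39 sense positions per 1000 within bases 1 to 100, 10.1 within bases 100 to 200, 13.8 within bases 200 to 300 and 17.3 within bases 500 to 600. Leader bases had 1.95, 4.78 and 5.81 in the first 3 of these stretches and 4.93 in bases 500 to 600. The G+C of these bases was 66.0% in the leader of bases 1 to 100 and 51.1% in the coding sequence of bases 500 to 600, and its part in the result was not tested.

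**Figure D2:**
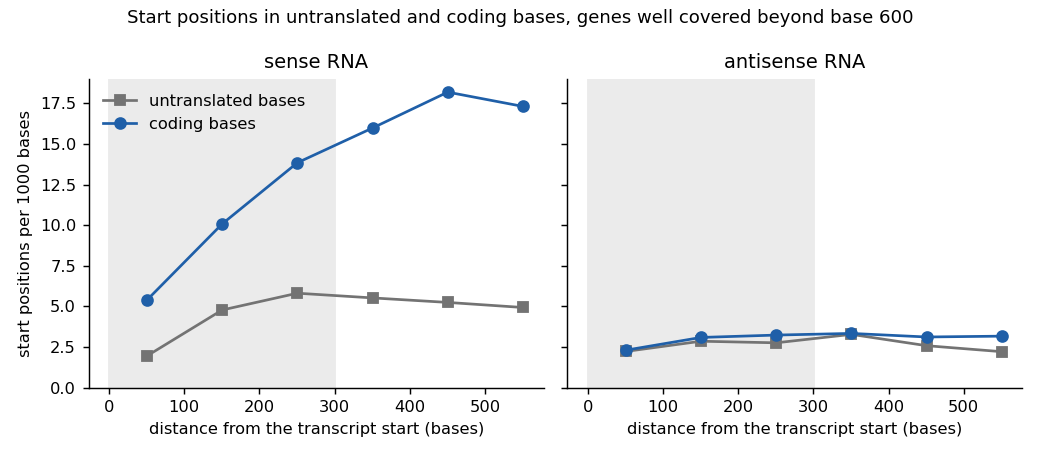
Start positions per 1000 bases (y) in 100-base bins by distance from the transcript start (x) in 4860 well-covered genes, for sense (left) and antisense RNA (right), in untranslated (grey squares) and coding bases (blue circles). Sense density in coding bases goes from 5.39 to 17.3 while that in untranslated bases stays at or below 5.81, and antisense densities lie between 2.21 and 3.34 in both.

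Genes with short leaders had the larger sense first share. It was 39.7% (38.9 to 40.5) in the 6378 genes with a leader under 100 bases, 30.6% (30 to 31.1) in the 8895 genes with at least 100 but under 300 bases, and 33.9% (32.9 to 34.9) in the 5825 with 300 or more, where the next window is also partly or wholly leader. Their first windows had a median G+C of 55.3%, 58.7% and 58.7%.

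From 40% G+C upward, sense positions became fewer and the antisense share larger, in the first and in the next windows. In well-covered genes, 100-base tiles of bases 100 to 300 had 14.7 sense positions per 1000 bases at 40% to 50% G+C, 11.9 at 50% to 60%, 6.14 at 60% to 70% and 3.32 at 70% or more. Antisense positions in the same tiles numbered 2.37, 3.47, 3.54 and 2.67, highest between 50% and 70% G+C, and the antisense share was 13.9% at 40% to 50% G+C and 44.6% at 70% or more. At like G+C the tiles of bases 300 to 600 held more sense positions in each class, with 19.5, 16.8, 8.26 and 3.90. This did not hold over all 21098 genes, where tiles of 60% to 70% had 3.10 in bases 100 to 300 and 3.02 in bases 300 to 600, and those of 70% or more had 1.94 and 1.77. Tiles under 40% G+C had fewer sense positions than those of 40% to 50%. In well-covered genes they had 14.0 in bases 100 to 300 and 16.6 in bases 300 to 600. Over all genes they had 2.83 and 4.78, against 4.36 and 6.71 at 40% to 50%.

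**Figure D3:**
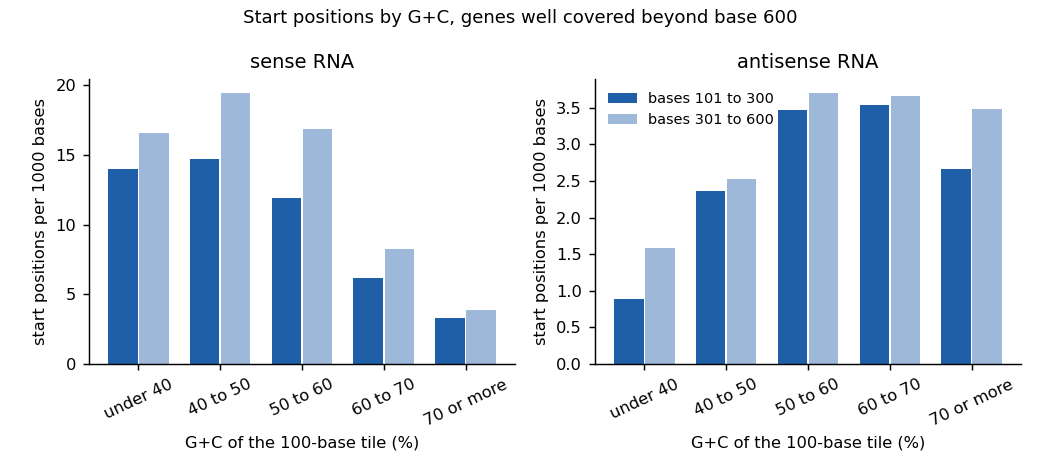
Start positions per 1000 bases (y) in 100-base tiles grouped by their G+C (x) in 4860 well-covered genes, for sense (left) and antisense RNA (right, on its own scale), in bases 100 to 300 (dark) and 300 to 600 (light). Sense density at 40% to 50% G+C is 14.7 and 19.5 and at 70% or more 3.32 and 3.90, whereas antisense density is lowest in the tiles under 40%, at 0.890 and 1.59.

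Over whole windows the relation was mixed. When first windows were ranked by G+C into 5 equal groups, the share of genes with a sense read there was 11.2% in the poorest group (up to 48.3% G+C), 29.1% in the middle group and 20.8% in the richest (67.3% or more). A sense read beyond base 600 was seen in 40.4%, 67.4% and 86.9% of the same genes. The sense first share was 42.9% in the poorest group, 39.4% in the middle and 22.5% in the richest, and the antisense share in the first windows 28.7%, 27.7% and 44.7%. First windows with sense reads had a median G+C of 59.0%, and those without 57.0%. Among well-covered genes the order was the other way, with 60.7% for 2025 windows with sense reads and 64.7% for 2835 without.

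Few members had any read. Sense reads lay in the first 300 bases of 4923 genes and antisense reads in those of 3744, with both in 1671, while 14857 genes had neither. In the genes with both windows whole, 22.9% had a sense read in the first and 30.1% in the next 300 bases, and 17.4% and 16.4% had an antisense read. The more sense positions a gene had beyond base 600, the smaller was the share in the first window. Where no sense read lay beyond base 600, 682 genes had a sense read in the first and 678 in the next window, with a first share of 51.4% (49.6 to 53.2). It was 39.1% (38.1 to 40.2) with 1 to 4 sense start positions beyond base 600, 35.1% (34.4 to 35.9) with 5 to 19, and 29.4% (28.7 to 30.1) with 20 to 99. Where 100 or more sense start positions lay beyond base 600, the first share was 27.5% (26.5 to 28.6), and 59.6% of the 342 genes had a sense read in the first and 81.9% in the next window.

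Reads were held by few genes and few positions. The 10 genes with most sense reads held 40.3% of the sense reads in the first windows, and 375 positions held the upper 50% of the reads. By contrast, the 10 genes with most sense start positions held 5.38% of the positions. Ddx23, a DEAD-box helicase of the spliceosome, had the most, with 17804 sense reads at 140 positions, against 2693 reads at 137 positions in the next 300 bases. Its first window spans 98656686 to 98662889 on chromosome 15 and takes in 3 exons. A cluster of 5 adjacent bases from 279 to 283, each with at least 1000 reads, held 10797 of its reads, or 60.6%, with 3778 at base 282. That base lies in exon 3, in coding sequence, 214 bases after the first base of the start codon. The number of positions was thus alike in both windows of Ddx23 and the number of reads was not.

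Abcf1, an ATP-binding protein of translation initiation, had 9300 reads at 150 positions in the first and 30558 at 202 positions in the next 300 bases. Its highest position in the first window held 9.01% of the reads there, so the reads were spread more widely than in Ddx23. Aimp1, a scaffold of the aminoacyl-tRNA synthetase complex, had 10315 reads at 83 positions and 8208 at 122, and base 281 alone held 3467. L1td1, an RNA-binding protein of stem cells derived from a LINE element, had 6309 reads at 76 positions and 12708 at 91. In all 4 genes most sense positions of the first window lay in coding sequence, with 137 of 140 in Ddx23, 150 of 150 in Abcf1, 83 of 83 in Aimp1 and 59 of 76 in L1td1.

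Some genes of this group had more RNA in the first than in the next window. Rhox5, an X-linked homeobox gene, had 3142 sense reads at 88 positions in the first and 49 at 10 in the next 300 bases of a transcript of 754 bases. Lap3, a leucine aminopeptidase, had 2377 at 74 positions and 139 at 26. Tceal9 on the X chromosome had 4041 at 95 positions and 1942 at 48, and 51 of its 95 positions lay in the leader. Rbm5, a splicing regulator, had 2349 at 60 and 1096 at 36. Cbx1, which encodes the heterochromatin protein HP1 beta, went the other way, with 3941 at 53 positions and 4699 at 80. Fam25c had 4306 reads at 59 positions, and its transcript of 408 bases has no whole next window. By positions, 2810004N23Rik followed with 63 in the first and 125 in the next window, and Ndufaf2, an assembly factor of respiratory complex I, with 63 and 10. Of the 10 single positions with most sense reads, 6 were in Ddx23, 3 in Aimp1 and 1 in Cbwd1, with 1142 reads at base 294.

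**Figure D4:**
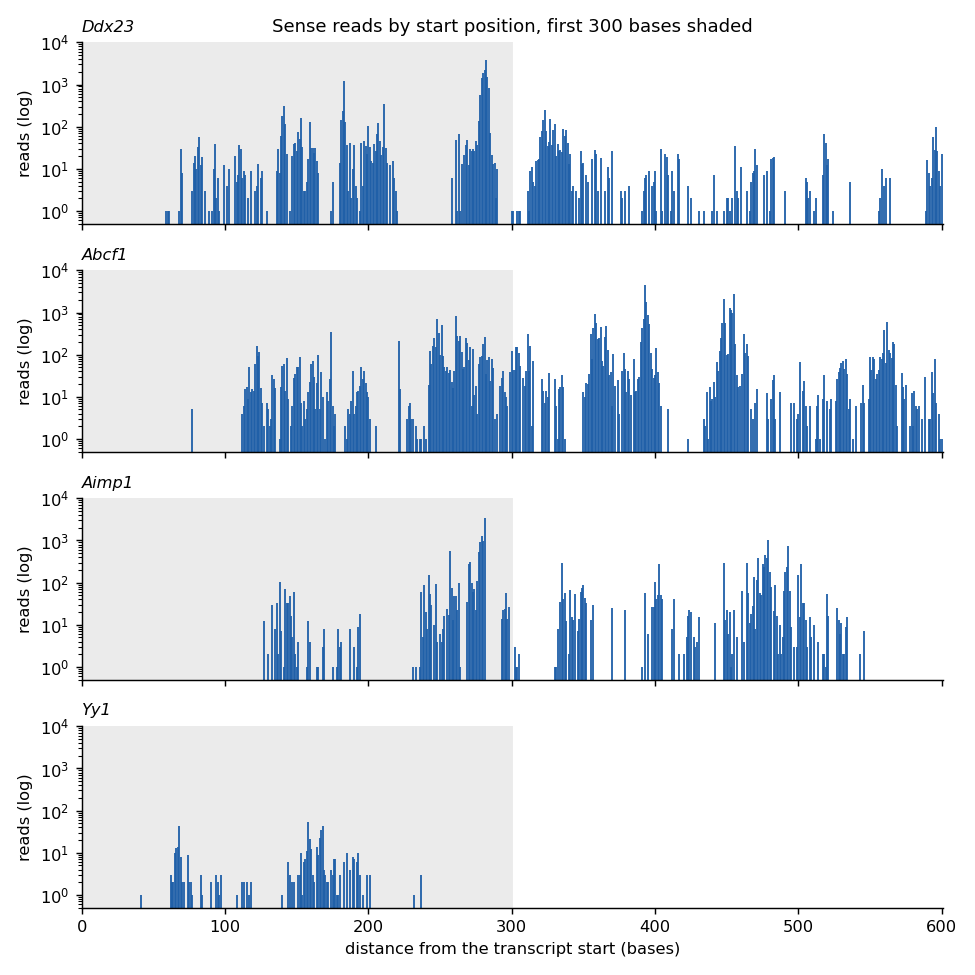
Sense reads (y, log scale) at each start position by distance from the transcript start in bases (x) for Ddx23, Abcf1, Aimp1 and Yy1, with the first 300 bases shaded. Ddx23 peaks at base 282 with 3778 reads and Aimp1 at base 281 with 3467, Abcf1 is covered across both windows, and Yy1 has its 74 positions between bases 41 and 237 and none in the next 300 bases.

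Sense reads in the first window without any in the next were found in 1957 genes, and the opposite in 3470, while 2883 genes had sense reads in both. Most of the former rested on little, as 1362 of them had a single position. Of the 1957 genes, 483 had no sense read on the rest of the transcript, and 359 had no other sense read of the gene at all. The 3470 genes with reads in the next window only included 1771 with a single position and 536 with 5 or more. Their first windows had a median G+C of 62.0%, against 58.7% in the 1957 genes and 57.7% in all genes. The sets also differed in how many had 10 or more positions beyond base 600, with 466 of 1957 and 1402 of 3470, against 4860 of all 21098 genes.

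Yy1, a zinc finger transcription factor that can bind Polycomb sites, led the genes with reads in the first window only. It had 511 sense reads at 74 positions between bases 41 and 237, 0 in the next 300 bases and 270 reads at 47 positions beyond. The region is 108792973 to 108793272 on chromosome 12, in exon 1, and all 74 positions lie in the leader of 440 bases. Its G+C is 77.3%, well above the median, and 384 of the 511 reads were 36-base reads and 126 were 40-base reads. Yy1 thus had many positions where windows as rich in G and C mostly had few.

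Pabpc4, a cytoplasmic poly(A)-binding protein, came next with 456 reads at 30 positions between bases 47 and 127 of its leader and 12 reads beyond base 600. Its highest position lies beside a long run of A. Gnl2, a nucleolar GTPase, had 88 reads at 24 positions in the first window, 0 in the next and 3392 at 159 positions beyond. Pappa, a metalloproteinase, had 154 at 24 in a first window of 45.3% G+C, while its next window has 82.3%. Pex10, a peroxisomal ubiquitin ligase, had 70 at 20, and Ap2m1, a clathrin adaptor subunit, 97 at 17. Celf4 and Mfsd14a had 16 positions each, and Ift43 and Pde3a 15 each.

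Among genes with reads in the next window only, Supt5, the elongation factor subunit that acts in promoter-proximal pausing, had the most positions. It had 0 sense reads in a first window of 69.0% G+C and 4103 at 125 positions in a next window of 52.3%. Bysl, a ribosome biogenesis factor, had 0 and 803 at 71 positions, with 54.7% and 62.0% G+C, so that here the first window was the poorer in G and C. Gzf1, a zinc finger factor, had 0 and 3096 at 65, and the checkpoint kinase gene Chek2 had 0 and 1549 at 55. Ggta1 had 54 positions, Rchy1 49, Lman1 47, and Cfap20, Cog2 and Slc23a2 46 each in the next window. Of these 10 genes 9 had a first window richer in G and C than the next one, as did 82.1% of the 3470 genes and 70.9% of all genes. The first window of a longest transcript can lie in an exon that the cells do not use, and coding transcripts of Ggta1, Slc23a2 and Lman1 start at widely spaced points. In the 9543 genes whose coding transcripts all start within 50 bases of each other, the sense first share was 35.6%.

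Of the 101382 antisense reads in the first windows, 4 positions held the upper 50%, and the 10 genes with most held 58.4%. Tro decided both values. Without it 3.74% of the antisense positions held the upper 50% and the 10 genes with most held 27.1% of the reads, against 2.23% and 40.3% for sense RNA. Tro, the trophinin gene on the X chromosome, had 44255 of its 44351 antisense reads there at base 265, and 19 sense reads. Spp1, which encodes osteopontin, had 3900 antisense reads at 27 positions in the first and 22 at 5 in the next window, against 272 and 1433 sense reads. Zfp106 had 2195 antisense reads, 2151 of them at 1 position, and Tmem192, a lysosomal membrane protein, had 2115 at 22 positions with 1885 at base 203. Zfp106 and Tmem192 overlap a gene on the other strand, and Tro and Spp1 do not. In each of these genes most antisense reads rested on a single base.

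The others of this group were Chmp2b, an ESCRT-III subunit, with 1477 antisense reads at 12 positions and 0 sense reads in the first window, Ccdc47 with 1398 at 32, and the glycolytic gene Pgk1 with 1294 at 10. Pgk1 had no sense read in the first 600 bases and 535 sense reads beyond. Nup205, a nuclear pore subunit, had 879 at 10 positions, Utp6 827 at 8 and 9530068E07Rik 737 at 11. In 7 of the 10 genes the next window had at most 22 antisense reads. Chmp2b was the exception in the other direction, with 2801. By positions, a ranking chosen after the values were seen, Becn1 led with 35 antisense positions in the first and 1 in the next window, followed by Eif2s2 with 33 and 0 and by Ccdc47 with 32 and 1. Becn1 and Eif2s2 overlap a gene on the other strand and Ccdc47 does not. Over all genes with an antisense read in the first but not the next window, 38.8% overlap a gene on the other strand, against 37.0% of all genes. Reads that also fitted an overlapping gene in sense had been given to that gene before this count. The part of overlap in the antisense reads was not tested.

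Gene by gene, the next window was the fuller in most genes with enough positions to compare. Of 1186 genes with at least 10 sense start positions in both windows together, 691 had at least 2-fold more in the next window, which is 58.3%, and 202 had at least 2-fold more in the first, which is 17.0%. These folds come from a single pool and were not tested. The median gene had 26.2% of its positions in the first window. The lists below were chosen with earlier results of these data known and are described by counts.

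Transcripts of the Polycomb complexes themselves had more even windows when pooled, but few genes held most of their positions. Over the 30 genes listed, 127 sense positions lay in the first and 116 in the next windows, a first share of 52.3% (45.8 to 58.7), and 49.1% (41.3 to 56.9) without Rbbp7. Rbbp7, a histone-binding subunit of PRC2, had 45 and 31 positions, Ezh2 31 and 17, and Jarid2, a cofactor of PRC2, 19 and 21. Together Rbbp7, Ezh2 and Jarid2 held most positions of the list in both windows, and the other genes pooled had more in the next windows. Of the 5 with at least 10 positions, 0 were 2-fold higher in the first window and 1 in the next, against 17.0% and 58.3% over all such genes. The median gene of these 5 had 52.6% in the first. Ezh2 also had 79 antisense reads at 9 positions in its first window and 481 at 19 in the next. Coding transcripts of Rbbp7, Ezh2 and Jarid2 start at widely spaced points, so that their first windows need not be the front of the RNA present.

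Among developmental regulators that Polycomb is known to silence in stem cells, sense reads lay in the first window of 8 and in the next of 8 of 45 genes, or 17.8% in each, against 22.9% and 30.1% of all genes. They gave 27 and 24 positions, or 0.60 and 0.53 per gene against 0.80 and 1.56, below all genes in both windows. Irx3 held 13 of the 27, so that the value of the first windows rests largely on this gene. Irx3, a homeobox gene, had 57 reads at 13 positions in the first and 16 at 4 in the next window, Bmp4 6 at 6 and 52 at 6, and Tbx5 4 at 3 and 0. The median G+C of these 45 first windows was 62.3%. Immediate early genes and others known for paused polymerase had 14 and 30 positions over 27 genes, led by Ier2 and Myc with 3 each and Hsph1 with 2 in the first window. Early differentiation genes had 4 and 4 positions over 15 genes, with single reads in Eomes, Fgf5 and Nes. The first share of the immediate early list was 31.8% (18.6 to 47.6), and that of the early differentiation list 50% (15.7 to 84.3).

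Pluripotency genes had 141 positions in the first and 224 in the next windows of 30 genes, a first share of 38.6% (33.6 to 43.8). L1td1 held 76 of the 141. Dppa4, a chromatin protein of early embryos, had 234 reads at 21 positions in the first and 3 at 1 in the next window. Of 8 pluripotency genes with at least 10 positions, Dppa4 alone was 2-fold higher in the first and 4 were in the next. Over all genes with at least 10 positions the shares were 17.0% and 58.3%. Dppa5a, an RNA-binding protein, had 10 positions in each window. Ribosomal protein genes had 58 and 90 positions, with 39.2% (31.3 to 47.5) in the first. The leaders of the transcripts used had a median of 120 bases, against 173 over all genes. Rps14 had 9 and 13, Rps3 8 and 11 and Rpl32 7 and 7, with leaders of 284, 117 and 451 bases. Coding transcripts of Rps14 start at points up to 29141 bases apart, so that its first window need not be the front of the RNA present.

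Translation factors had 163 and 418 positions, with a first share of 28.1% (24.4 to 31.9), and 6 of 9 were 2-fold higher in the next window and 1 in the first, near the 58.3% and 17.0% of all genes. Eef2, the ribosomal translocase, had 786 sense reads at 53 positions and 11835 at 130, with 348 antisense reads at 28 positions and 49 at 15. Eif3b had 1436 sense reads at 44 positions in a first window of 75.3% G+C and 8746 at 142 in the next, and Eef1a1 had 46 at 17 and 520 at 6. Splicing and RNA-binding protein genes had 83 and 212 positions. Of 11 with at least 10 positions, 9 were 2-fold higher in the next window and 1 in the first, against the same 58.3% and 17.0%. Hnrnpu had 13 and 16, Srsf5 10 and 28, and Tra2b 10 and 0.

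Chaperone genes stood at the level of all genes, with 86 and 168 positions or 33.9%, led by Hsp90b1 with 27 and 33, Canx with 16 and 33 and Cct5 with 15 and 9. Housekeeping genes had 70 and 178 positions or 28.2%, with Ncl, a nucleolar protein, at 26 and 53, Tubb5 at 10 and 9 and Aldoa at 8 and 18. Zfp genes had 83 and 213 positions or 28.0%, of which Zfp106 had 47 and 88, Zfp462 6 and 27 and Zfp568 5 and 2. Genes of fibroblasts and matrix had 64 and 219 positions, with 22.6% (17.9 to 27.9) in the first window. Of 10 with at least 10 positions, 8 were 2-fold higher in the next, against 58.3% over all such genes. Col1a1 had 28 and 35 positions, Thy1 11 and 12 and Postn 6 and 13. Histone genes had 8 and 36 positions over the 13 with both windows whole. Hist1h1b had 2 and 8, Hist1h4d 2 and 7, and Hist1h2ba 2 in a transcript too short for the next window.

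**Figure D5:**
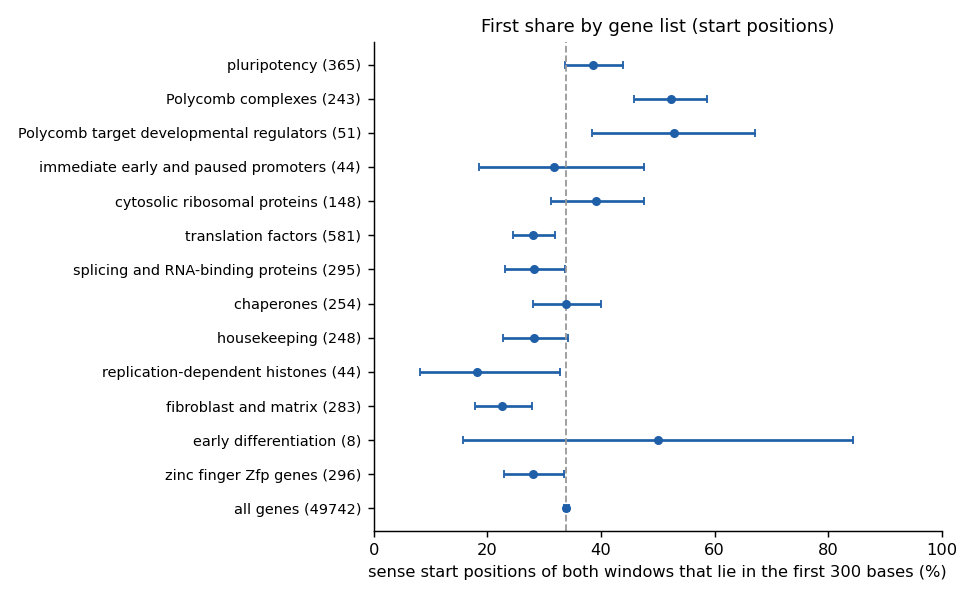
Share of the sense start positions of both windows that lay in the first 300 bases (x, percent) for each gene list and for all genes (y, number of positions in brackets), with 95% Clopper-Pearson intervals as bars and the share of all genes, 33.9%, as a dashed line. The Polycomb complexes stand at 52.3% and the fibroblast and matrix genes at 22.6%, with intervals on either side of the line.

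Reads of the 2 main lengths in the table gave different shares. The sense first share was 38% (37.4 to 38.6) in 36-base reads and 28.9% (28.4 to 29.3) in 40-base reads. For antisense RNA it was 54.95% and 48.6%, and the antisense share of the first windows was 31.2% and 33.1%. Sense RNA was thus the sparser in the first windows at both lengths. No label says what separates the read lengths.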

How the data were processed

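The deposited table pairs each distinct read sequence with the authors' count of reads, unscaled. Per the labels' protocols, template switching made the libraries. The table holds 34072479 reads, of which 6252281 have 36 and 24772940 have 40 bases. No source used here gives the authors' read filters or aligner. The submitters' processing notes name mm9, and the table has no coordinates. Because it is tied to no library, no test between groups was made.

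Reads of at least 26 bases lost 6 leading bases and were aligned by bwa 0.7.19, allowing 2 mismatches and no gaps, against the GENCODE M21 transcripts of GRCm38. Of 31529044 searched reads, 36.04% were given to a single gene. Reads in sense orientation on a gene took precedence over antisense placements on genes that overlap it. Reads at several places of the same transcript were left out. Introns and promoters were not searched. Intervals came from scipy 1.17.1. Simulated reads had 34 bases with up to 2 mismatches and started no earlier than base 34, so shorter reads were not covered. Of 9978 simulated sense reads from the first windows 89.65% returned to their own gene, strand and base, and 87.57% of 10036 from the next. For antisense reads the shares were 85.6% of 10044 and 84.45% of 9942. A wrong gene, strand or base was given to 3.73% of antisense and 0.12% of sense reads from the first windows. In the next windows these shares were 2.30% and 0.07%.

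Members and lists were chosen with earlier results of these data known. Named genes are the 10 with most sense reads, sense positions or antisense reads in the first window, the 10 with most positions in either window only, the 3 with most positions of each of 13 lists, and the 10 single positions with most reads.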

Additional observations from a re-analysis of the deposited data

How the results depend on the processing

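No paired analysis was possible because the table is tied to no library. The values in each sentence are, in order and where they lay outside the counting interval of the main value, the sense first share, the antisense first share and the antisense share in the first and the next windows, which were 33.9%, 51.8%, 32.4% and 18.6%. They were 20.6%, 60.1%, 39.8% and 10.2% by reads, and 20.6%, 45.9%, 27.1% and 10.2% by reads without Tro. Without mismatches they were 32.7%, 50.6%, 30.4% and 17.1%. They were 28.9%, 48.6%, 33.1% and 17.5% in 40-base reads, 36.6%, 53.2%, 30.3% and 18.1% with the first 40 bases of each window left out, 29.9%, 49.5%, 39.45% and 22.1% with windows of 200 bases, 40.7%, 53.4%, 25.45% and 17.0% with windows of 500 bases, and 29.9%, 46.5%, 29.9% and 17.3% in well-covered genes. In 36-base reads the first 3 were 38%, 54.95% and 31.2%. Without the antisense first share they were 27.9%, 24.4% and 10.2% by distinct sequences, 36.9%, 25.8% and 15.9% by the lowest matched base, and 35.7%, 31.1% and 18.95% per matchable base. The sense first share and the antisense share of the first windows were 35.6% and 31.3% with coding starts within 50 bases, and 33.3% and 33.3% without the 10 genes with most sense reads. The genes with sense reads in the first or in the next window only, 1957 and 3470 in all, were 787 and 1353 with coding starts within 50 bases, 1135 and 1972 without a gene on the other strand, and 466 and 1402 among well-covered genes, where fewer genes were counted. The median G+C of first windows with sense reads was 58.3% with at least 2 and 58.0% with at least 5 positions required, and that of the others 57.7% at 5. Genes 2-fold higher in the first window were 12.9% with at least 20 positions. The cause of these differences was not tested. The alternatives for well-covered genes, incomplete transcript starts and Tro were chosen after seeing the data. The median first window had no read, which limits what single genes show.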

Other observations

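Runs of G were common in these regions and did not separate well-covered genes with and without sense reads. The motif GGGG, searched on the RNA strand alone and counted once a window, was in 69.2% of 21098 first windows and 57.1% of next windows. First windows with sense reads held it in 75.9% (95% Clopper-Pearson interval 74.6 to 77.1) and those without in 67.3% (66.5 to 68.0). Among well-covered genes the shares were 79.3% (77.4 to 81.0) and 78.0% (76.4 to 79.5). The complementary run CCCC was in 65.7% of first windows with sense reads and 66.2% of those without, and in 66.6% and 77.3% among well-covered genes. In the next windows of well-covered genes CCCC was in 56.5% with and 66.9% without sense reads, and GGGG in 58.3% and 60.4%. A match is a description of the letters and not a binding site. The G+C of windows with and without reads also differed.

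Neighbouring start positions were more frequent for sense than for antisense RNA. In the first windows 37.2% of sense start positions (36.5 to 37.9) and 21.3% of antisense ones (20.4 to 22.2) had another at the base beside them, and in the next windows 42.8% and 20.6%. Positions were also denser for sense RNA, and the part of density in this was not tested.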
